A study of Homo sapiens with 6 samples.

Results

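Laminins are secreted glycoproteins made of 1 α, 1 β and 1 γ chain, and they form the first sheet of a basement membrane. Here 9 genes were followed across the arrays: the chain genes LAMA3, LAMA4, LAMA5, LAMB1, LAMB2, LAMB3 and LAMC1, and the linker genes NID1 and AGRN. They were found as probe sets annotated to a single one of these symbols, which gave 18 of 22215 non-control probe sets and 8 of the 9 genes, out of 11963 genes named in the same way. No probe set was annotated to LAMA3 alone, so LAMA3 was not analysed here.

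The arrays held RNA of PC3, a human prostate cancer cell line from a bone metastasis, grown in RPMI medium. The first group was 3 arrays labelled PSMA (replicates 4, 5 and 6), of cells transfected with the pLNCX-PSMA plasmid to overexpress prostate-specific membrane antigen. The second was 3 arrays labelled control (replicates 1, 2 and 3), which the titles call wild type and the source label calls vector only. Per the labels' protocols both kinds of cells passed through FuGENE transfection and puromycin selection. Both were given 3 µg of plasmid and 2 µg of FuGENE, with 30 min of transfection and 72 h of recovery. The labels do not say whether the replicates were separate cultures or whether the selected cells were clones, so the p-values cover no more than the spread between the arrays at hand. The question was which transcripts differ between the groups.

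FOLH1 encodes PSMA, and its signal went against the labels. The brightest probe set shared by FOLH1 and its paralog FOLH1B read 15.1, 8.58 and 13.7 on the arrays labelled PSMA, against 477, 417 and 548 on the arrays labelled control, in arbitrary intensity units. All 5 probe sets of these genes were lower on every array labelled PSMA. Directions given for the laminin genes therefore follow labels that this signal contradicts. Log2 values correlated across probe sets at r = 0.998 within groups (6 pairs) and at 0.987 to 0.988 between groups (9 pairs), and such correlations are across probe sets, not replicates. The epithelial and line markers KRT8, KRT18, CD44 and VIM were all bright (1187 to 6519), and the luminal marker KLK3, which PC3 cells lack, read 12.9 to 17.1. Of 5 endothelial genes only PECAM1 passed the filter described below, and the summed endothelial signal was 126 to 139 on arrays labelled PSMA and 95.4 to 109 on arrays labelled control. KDR made most of that gap, with a mean of 29.9 on arrays labelled PSMA and 10.2 on arrays labelled control. The 5 fibroblast and pericyte genes summed to 166 to 176 on arrays labelled PSMA and 151 to 172 on arrays labelled control (1 above the filter, COL1A1), and the 3 leucocyte genes to 44.3 to 48.2 and 38.9 to 44.8 in the same order (0 above the filter). The part of other cells in the laminin values was not tested. The 3'/5' signal ratio of GAPDH was 1.28 to 1.45 on arrays labelled PSMA and 1.22 to 1.34 on arrays labelled control, so that the groups overlapped. That of ACTB was larger on all 6 arrays, at 3.68 to 5.20 on arrays labelled PSMA and 3.86 to 5.10 on arrays labelled control, also with overlap.

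As background, an α, a β and a γ chain join through a coiled coil inside the cell, and each combination has its own tissues and receptors. Epithelia make much of the trimer with α5, β1 or β2, and γ1, while the trimer with α3 and β3 anchors them through hemidesmosomes and α4 belongs mostly to vessels and mesenchyme. Nidogen 1, from NID1, binds the γ1 chain and joins laminin to type IV collagen, and agrin, from AGRN, binds the laminin coiled coil at one end and dystroglycan at the other. In the prostate, basal cells rest on such a membrane, and prostate carcinomas are known to lose the trimer with β3.

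The promoters of the 3 chains that make up the α5, β1 and γ1 trimer are shown because these genes were higher together, and that of LAMB2 because β2 can take the place of β1 and its difference did not pass the test. They are RefSeq windows from 250 bases before to 50 after the annotated start, build GRCh38.p14, printed 5′ to 3′ on the gene's strand. Capitals mark matches, on either strand and with overlaps kept, to the GC box (GGGCGG), the AP-1 site (TGANTCA), the E2 box (CACCTG) or the TATA box (TATAAA).
LAMA5, chr20:62367263-62367562, - strand: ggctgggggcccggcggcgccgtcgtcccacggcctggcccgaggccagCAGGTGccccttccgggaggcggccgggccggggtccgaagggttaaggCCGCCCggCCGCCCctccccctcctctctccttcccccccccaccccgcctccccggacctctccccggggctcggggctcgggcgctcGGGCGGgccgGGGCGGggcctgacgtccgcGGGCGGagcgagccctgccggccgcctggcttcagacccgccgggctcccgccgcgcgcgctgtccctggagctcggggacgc
LAMB1, chr7:108003112-108003411, - strand: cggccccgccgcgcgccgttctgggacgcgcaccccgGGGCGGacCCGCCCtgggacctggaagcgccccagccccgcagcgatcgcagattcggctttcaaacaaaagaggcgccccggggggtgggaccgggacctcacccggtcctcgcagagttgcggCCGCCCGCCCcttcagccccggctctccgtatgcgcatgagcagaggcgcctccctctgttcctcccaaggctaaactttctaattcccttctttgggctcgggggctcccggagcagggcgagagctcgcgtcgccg
LAMC1, chr1:183023170-183023469, + strand: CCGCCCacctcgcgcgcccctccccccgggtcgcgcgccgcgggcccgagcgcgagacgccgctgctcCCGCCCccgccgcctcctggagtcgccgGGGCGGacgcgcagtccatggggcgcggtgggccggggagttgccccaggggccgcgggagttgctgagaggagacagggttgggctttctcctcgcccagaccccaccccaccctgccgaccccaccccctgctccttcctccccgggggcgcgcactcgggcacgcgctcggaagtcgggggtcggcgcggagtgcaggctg
LAMB2, chr3:49133001-49133300, - strand: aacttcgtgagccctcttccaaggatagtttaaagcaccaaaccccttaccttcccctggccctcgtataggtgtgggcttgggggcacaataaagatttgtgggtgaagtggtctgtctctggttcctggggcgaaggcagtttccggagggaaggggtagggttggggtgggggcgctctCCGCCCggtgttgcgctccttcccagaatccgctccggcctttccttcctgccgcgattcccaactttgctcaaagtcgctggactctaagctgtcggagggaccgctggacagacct
The GC box matched 5 times in the LAMA5 window, 4 times in LAMB1, 3 times in LAMC1 and once in LAMB2. Of 34796 different RefSeq promoter windows of that length, 44.9% held a GC box. The E2 box matched once in LAMA5 and in none of the other 3 windows, against 20.6% of all windows. AP-1 and TATA box letters were in none of the 4 windows, against 7.72% and 11.6% of all windows. The windows of LAMA5, LAMB1 and LAMC1 were 82.7%, 71.0% and 79.0% G and C, and that of LAMB2 was 58.7%, equal to the median of all windows (58.7%). Among the members not shown, NID1 and LAMB3 went otherwise. The NID1 window was 74.7% G and C with 1 GC box, though NID1 did not pass the test. The LAMB3 windows were 61.3%, 60.7% and 53.7%, with 1 GC box each and an AP-1 match in the last, though LAMB3 was higher. The LAMA4 window was 51.3% G and C with 0 GC boxes, and LAMA4 was too dim to be tested. That of LAMA3, which was not analysed, was 61.7% with 1 GC box and 2 AP-1 matches. A link between these letters and the differences was not tested. RefSeq windows were found for 8 of the 9 genes, and a match of letters is a description, not a bound site.

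The chains of the α5, β1 and γ1 trimer were all higher on the arrays labelled PSMA, by 1.23-fold to 1.56-fold, and LAMB3 was 1.18-fold higher. LAMB2 and NID1 did not pass the test, AGRN was lower on 1 of its 2 testable probe sets, and LAMA4 was too dim to be tested. Of the 18 probe sets, 10, from 7 genes, lay above the median of the table (52.5) on at least 3 of the 6 arrays and were tested with limma on the log2 scale with all other such probe sets. At an adjusted p under 0.05, 6 were higher on arrays labelled PSMA, 1 was lower and 3 did not pass. Of all 11303 probe sets tested, 60.6% passed, 28.2% higher and 32.4% lower. Tested with limma against a minimum fold of 1.5, 0 of the 10 passed (also 0 at an unadjusted p under 0.05), against 6.61% of all tested probe sets (2.99% higher, 3.62% lower). The median log2 difference of the 10 was 0.27, against -0.02 for all tested probe sets. The groups did not overlap on 8 of the 10, against 67.3% of all tested probe sets. In RNA of whole cultures, fewer cells of a type and less RNA per cell cannot be told apart.

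LAMA5 encodes the α5 chain, whose C-terminal globules bind integrins and dystroglycan. Its probe set read 340.5, 355 and 336 on the arrays labelled PSMA, against 224, 233 and 228 on the arrays labelled control. The lowest array labelled PSMA stood clear of the highest array labelled control. The means were 344 ± 9.89 and 228 ± 4.66 (SD, n = 3 each), a log2 difference of 0.59 (SE 0.0444, limma adjusted p = 1.1e-05). Of all tested probe sets, 6.30% had a larger increase.

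LAMB1 encodes the β1 chain, and 2 probe sets report it. The brighter read 626, 651 and 691 on the arrays labelled PSMA, against 535, 533 and 482 on the arrays labelled control. The other read 413, 454 and 482 on the arrays labelled PSMA, against 360.2, 362 and 347 on the arrays labelled control. Neither showed an overlap between groups. Their log2 differences were 0.35 (SE 0.0599, limma adjusted p = 0.00124) and 0.33 (SE 0.0615, limma adjusted p = 0.00175), so that both gave nearly the same size.

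LAMC1 encodes the γ1 chain, which carries the nidogen-binding site and is shared by most laminins. Its brighter probe set read 269, 283 and 271 on the arrays labelled PSMA, against 218, 236 and 214 on the arrays labelled control. The dimmer one read 223, 223 and 239 on the arrays labelled PSMA, against 147, 146 and 145 on the arrays labelled control. Both separated the groups, but by different sizes. The brighter gave a log2 difference of 0.30 (95% interval 0.18 to 0.42, limma adjusted p = 0.00117), and the dimmer 0.64 (0.54 to 0.75, limma adjusted p = 8.2e-06). The intervals do not overlap, so the size of the γ1 difference depends on the probe set, 1.23-fold or 1.56-fold. Of all tested probe sets, 5.21% had a larger increase than the dimmer one.

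LAMB3 encodes the β3 chain of the hemidesmosome trimer. It read 565, 586 and 626 on the arrays labelled PSMA, against 494, 468 and 545 on the arrays labelled control. The groups did not overlap, but the gap between them was narrow beside the spread within them, with means of 592 ± 31.2 and 502 ± 39.1 (SD, n = 3 each). The log2 difference was 0.24 (95% interval 0.09 to 0.39, limma adjusted p = 0.0139), and 45.3% of all tested probe sets differed by more in either direction.

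LAMB2 encodes the β2 chain, known from kidney filters and nerve-muscle synapses. It read 66.3, 72.9 and 72.7 on the arrays labelled PSMA, against 72.3, 73.9 and 74.5 on the arrays labelled control. The groups overlapped, and the log2 difference of -0.06 did not pass (95% interval -0.18 to 0.06, limma adjusted p = 0.339). This interval lies below that of either LAMB1 probe set, the lower of which starts at 0.19.

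LAMA4 encodes the α4 chain. All 5 of its probe sets stayed below the median of the table on every array. The brightest read 32.0, 35.1 and 34.1 on the arrays labelled PSMA, against 42.5, 35.9 and 41.5 on the arrays labelled control. The groups did not overlap, as for 21.7% of all probe sets below the filter. With the filter left out, its log2 difference was -0.24 (SE 0.0797, limma adjusted p = 0.0550), and 32.0% of all non-control probe sets passed in that fit. The other 4 differed by -0.14 to 0.13 on the log2 scale with overlapping groups, and none passed. GCRMA pulls dim values together, and no other background correction was tested.

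**Figure D1:**
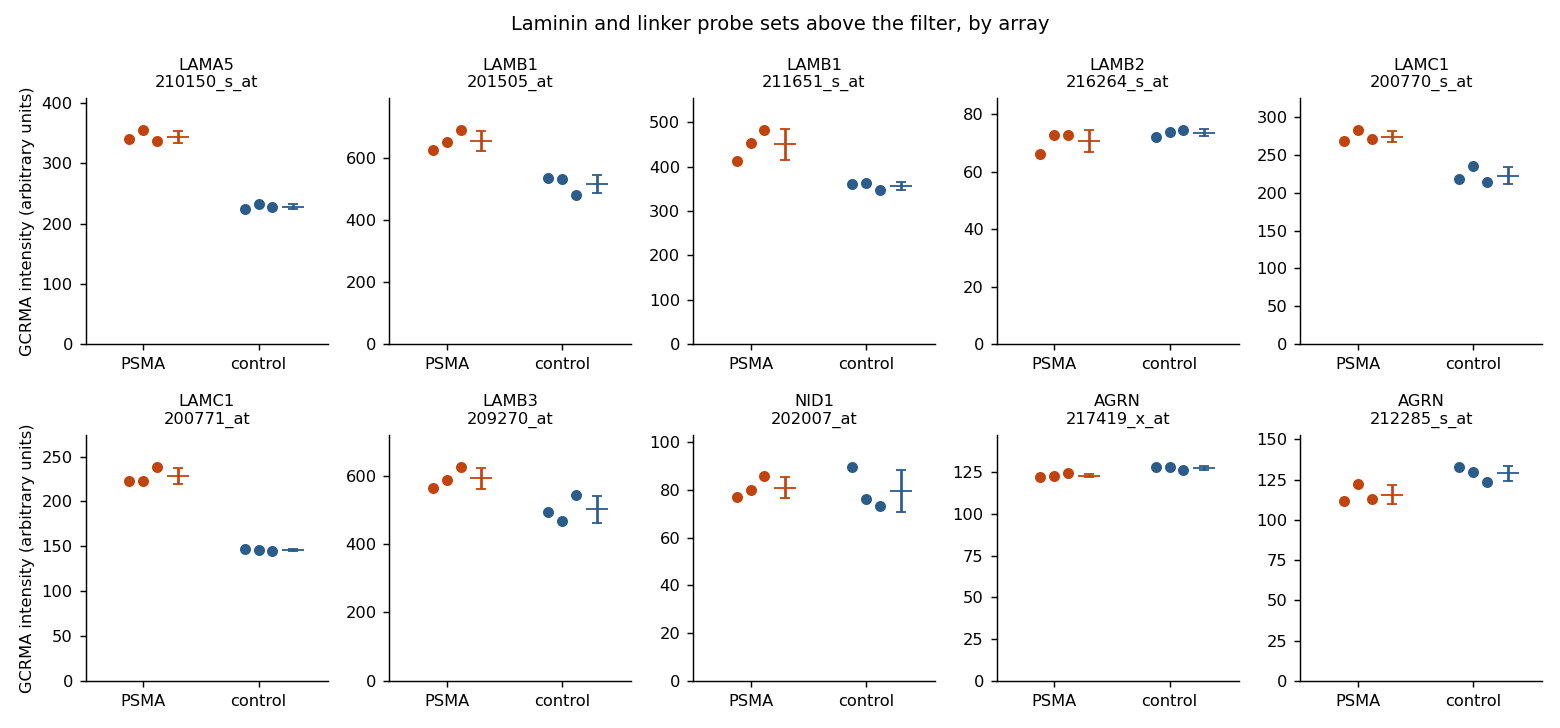
GCRMA intensity (vertical axes from 0, arbitrary units) of the 10 testable probe sets on the 3 arrays labelled PSMA (left) and the 3 labelled control (right). Points are arrays and bars are mean ± SD. LAMA5, LAMB1, LAMC1 and LAMB3 stand higher on arrays labelled PSMA, while LAMB2 and NID1 overlap.

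NID1 encodes nidogen 1, which joins laminin γ1 to the collagen network. Its brighter probe set read 77.2, 79.9 and 85.6 on the arrays labelled PSMA, against 89.7, 76.1 and 73.1 on the arrays labelled control. One control array was the highest of the 6 and the other control arrays the lowest, so the groups overlapped. The log2 difference was 0.03 (95% interval -0.16 to 0.21, limma adjusted p = 0.783), and its sign turned without PSMA replicate 6 (-0.01), control replicate 2 (-0.00199) or control replicate 3 (-0.03). The other NID1 probe set lay far below the filter, at 13.5 to 15.4 on arrays labelled PSMA and 12.6 to 13.9 on arrays labelled control.

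AGRN encodes agrin, a heparan sulphate proteoglycan. Its brightest probe set read 122, 122 and 124 on the arrays labelled PSMA, against 128, 128 and 126 on the arrays labelled control. The groups did not overlap, but the log2 difference of -0.05 did not pass (95% interval -0.14 to 0.04, limma adjusted p = 0.299). The next read 112, 122 and 113 on the arrays labelled PSMA, against 133, 129.9 and 124 on the arrays labelled control. It was lower by a log2 difference of -0.16 (SE 0.0539, limma adjusted p = 0.0340). This call was lost with no filter (limma adjusted p = 0.1003), after quantile normalization (0.0837), with an intensity trend in the variance prior (0.0513) and without PSMA replicate 4, PSMA replicate 6, control replicate 1 or control replicate 2 (0.0855 to 0.111). The 2 remaining AGRN probe sets were below the filter, with log2 differences of 0.09 and 0.05 and overlapping groups.

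**Figure D2:**
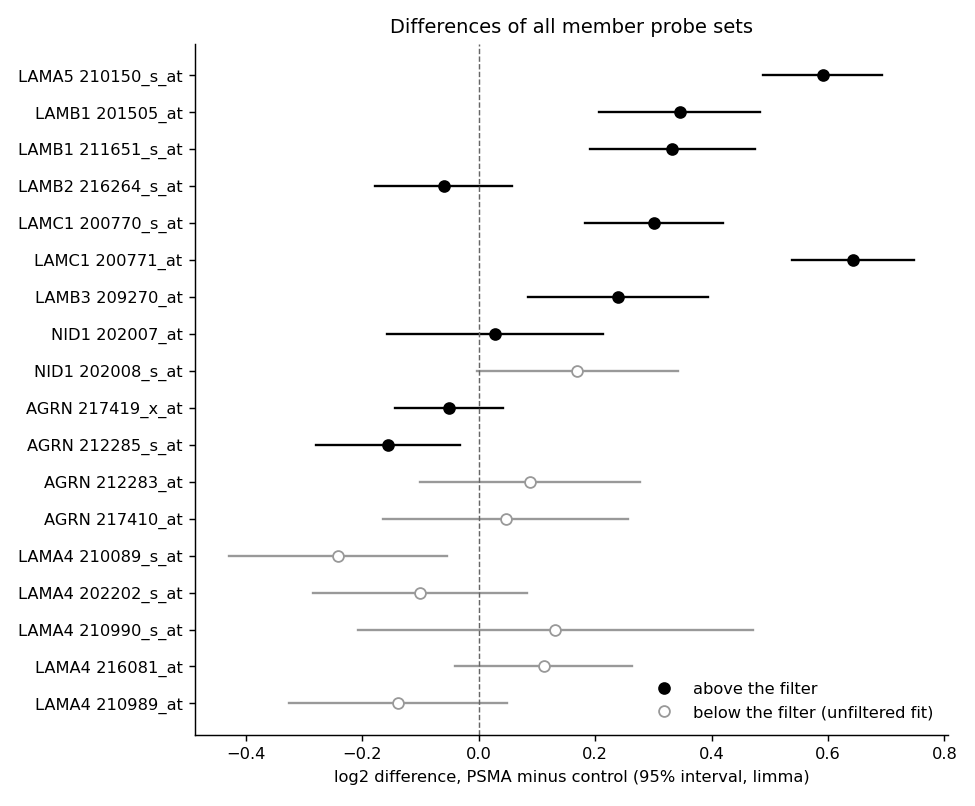
Log2 difference, arrays labelled PSMA minus arrays labelled control, of all 18 probe sets (horizontal axis), with 95% intervals from limma. Filled points were above the filter and open grey points below it, from the unfiltered fit. The intervals of LAMA5, LAMB1, LAMC1 and LAMB3 lie above 0, while the points of LAMA4, LAMB2, NID1 and AGRN scatter between -0.24 and 0.17. Among the latter, the intervals of the second AGRN probe set (-0.28 to -0.03) and the brightest LAMA4 one (-0.43 to -0.05) lie below 0.

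Within-array ratios show whether chains of the same kind, α or β, changed unequally. With 3 arrays against 3, the smallest p of an exact two-sided permutation test is 0.10, or 0.12 after adjustment over the 6 ratios computed, so no ratio could pass the threshold. The ratio of LAMB2 to LAMB1 was 1.32-fold lower on arrays labelled PSMA (log2 difference -0.41, exact permutation p = 0.10). Every array labelled PSMA had a lower β2 to β1 ratio than every array labelled control. The ratio of LAMA4 to LAMA5 was 1.78-fold lower (log2 difference -0.83, exact permutation p = 0.10), with LAMA4 below the filter. The ratio of LAMB3 to LAMB1 differed by -0.11 on the log2 scale with overlapping groups (exact permutation p = 0.70). Since β3 belongs to the trimer with α3, this ratio compares chains of different trimers and not an exchange of chains.

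Ratios of linkers to γ1 were added after the values were seen, with the brightest probe set of each gene. NID1 over LAMC1 was lower on arrays labelled PSMA by a log2 difference of -0.27, and AGRN over LAMC1 by -0.35. Both had no overlap between groups and reached the smallest possible exact permutation p of 0.10. Without control replicate 1 the NID1 ratio differed by -0.17. NID2 encodes nidogen 2, which binds the same partners as nidogen 1. It read 41.6, 61.6 and 57.6 on the arrays labelled PSMA, against 11.9, 14.4 and 11.03 on the arrays labelled control. Only 2 of its values exceeded the filter level, so it was tested in the unfiltered fit alone, with a log2 difference of 2.10 (SE 0.161, limma adjusted p = 8.0e-05). This 4.28-fold difference is against a group near background, and with a floor of 13.0, the lower quartile of all values, it was 3.92-fold. The ratio of NID2 to LAMC1 differed by 1.80 on the log2 scale (exact permutation p = 0.10), by 1.67 with the same floor and by 0.999 with a pseudocount of 16. The 14 neighbours of NID2, on chromosome 14, averaged 0.51, with 10 higher and 2 lower, and 2.64% of windows, made as described next, had a higher mean.

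At several laminin loci most of the neighbouring genes differed in one direction. For each member the 7 tested genes on either side in RefSeq order were taken, with log2 differences limited to ±2 and the member itself left out. Neighbours were counted as higher or lower at a limma adjusted p under 0.05. Of all 7035 tested genes, 29.6% were higher and 32.8% lower by that rule. The 14 neighbours of LAMC1, on chromosome 1, averaged 0.57, with 13 higher and 1 lower. LAMC1 itself, at 0.30 and 0.64, lay within their range. The 14 neighbours of LAMB3, also on chromosome 1, averaged 0.50, with 12 higher and 0 lower, and LAMB3 at 0.24 lay below that mean. Only 2.09% and 2.81% of 7036 such windows had a higher mean than these. Those of LAMA5, on chromosome 20, averaged 0.29, with 11 of 14 higher and 0 lower, and LAMA5 at 0.59 lay above most of them. This mean was less unusual, with 9.05% of windows higher.

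NID1, also on chromosome 1, stood among genes that were lower. Its 14 neighbours averaged -0.63, with 12 lower and 1 higher (MTR, at 0.80), and 98.9% of windows had a higher mean. NID1 itself differed by 0.03. LAMB1, on chromosome 7, was higher at 0.35 among neighbours that averaged -0.18 (3 higher, 7 lower), and 80.9% of windows had a higher mean. The windows of LAMB2 and AGRN averaged 0.09 and 0.07, with 26.8% and 30.2% of windows higher. AGRN had 9 neighbours because it lies at a chromosome end. For LAMC1, LAMB3 and LAMA5 the shift of the neighbourhood and that of the gene had the same direction, and the part of one in the other was not tested.

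**Figure D3:**
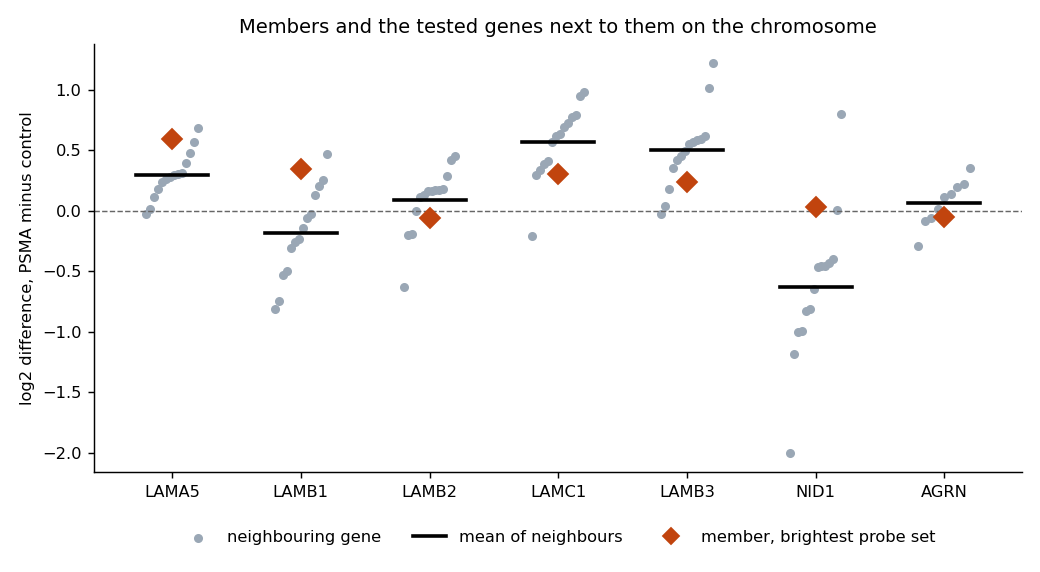
Log2 difference, arrays labelled PSMA minus arrays labelled control (vertical axis, limited to ±2), of 7 members (diamonds, brightest probe set), of their tested neighbours on the chromosome (grey points, sorted by value) and the mean of those neighbours (bars). LAMC1 and LAMB3 lie in stretches that averaged 0.57 and 0.50, NID1 in one that averaged -0.63.

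Other genes of the basement membrane went both ways. Of 19 such genes with a probe set, 9 were above the filter by their brightest probe set, of which 3 were higher on arrays labelled PSMA, 4 were lower and 2 (COL18A1 and PXDN) did not pass. Of all 7035 genes tested in this way, 62.4% passed, 29.6% higher and 32.8% lower. The median log2 difference of the 9 was -0.03, against -0.01 for all tested genes. FBLN1, whose product fibulin 1 binds laminin and nidogen, read 135, 133 and 137 on the arrays labelled PSMA, against 25.3, 30.3 and 24.9 on the arrays labelled control, a log2 difference of 2.34 (limma adjusted p = 1.3e-07). All 3 control values lay below the filter level of 52.5, so FBLN1 was tested only through the group in which it was high. Another FBLN1 probe set differed by 2.16 and was likewise tested only through the arrays labelled PSMA. Dimmer ones below the filter differed by 0.90, 0.16 and 0.14 in the unfiltered fit. The neighbours of FBLN1 averaged 0.08.

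The type IV collagen chains, which form the network that nidogen joins to laminin, split by pair. COL4A1 was higher by 1.82 and COL4A2 by 1.33 on the log2 scale (limma adjusted p = 2.4e-07 and 8.1e-06). A dimmer probe set of each, below the filter, differed by 0.99 and 0.45 in the unfiltered fit. That of COL4A2 did not pass (limma adjusted p = 0.0733). These genes lie side by side on chromosome 13, where all 14 neighbours of each were higher, with means of 0.93 and 0.98. Of all windows, 0.384% and 0.313% had a higher mean than these, while 29.6% of all tested genes were higher. COL4A6 fell by 2.12 and COL4A5 by 0.89 on the log2 scale (limma adjusted p = 2.4e-06 and 3.8e-05). COL4A6 lay below the filter level on every array labelled PSMA (28.05, 39.7 and 29.5) and was tested only through the control group, in which it was high. Dimmer COL4A6 probe sets, below the filter, differed by -1.66 and -0.01 in the unfiltered fit. COL4A6 and COL4A5 lie side by side on the X chromosome, where their neighbours averaged -0.07 and -0.11. In both pairs each gene was counted among the neighbours of the other, so these counts and means include the pair itself. The other genes past the threshold were HSPG2, which encodes the linker perlecan and fell by 0.31, and TINAGL1, which fell by 0.26. The remaining laminin chain genes with a probe set, LAMA1, LAMA2, LAMB4 and LAMC3, were below the filter with means of 6.35 to 36.7 in either group.

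Genes of laminin receptors and hemidesmosomes also went both ways. Of 16 genes with a probe set in this list, 12 were testable, and 7 were higher on arrays labelled PSMA, 4 were lower and ITGB1 (log2 difference -0.11) did not pass. Of all tested genes, 62.4% passed, 29.6% higher and 32.8% lower. The median of the 12 was 0.23, against -0.01 for all tested genes. One of the 7, BCAM, was above the filter level only on arrays labelled PSMA, and was tested only through them. ITGB4, the β4 integrin of hemidesmosomes, read 226, 266 and 283 on the arrays labelled PSMA, against 143, 146 and 153 on the arrays labelled control. The log2 difference was 0.81 (limma adjusted p = 5.4e-05), with neighbours that averaged 0.26. ITGA2, which binds collagen and laminin, was higher by 0.61 among neighbours at 0.23. ITGA3 and ITGA6, the α subunits that bind α3 and α5 laminins, were higher by 0.54 and 0.26. The plaque genes of the hemidesmosome that were testable fell, DST by 0.40 and PLEC by 0.29. The size for DST depends on the probe set, since its other 3 testable ones differed by -0.29, -0.45 and -1.21, the last of them below the filter level on every array labelled PSMA. SDC2, a syndecan, fell by 1.36 among neighbours that averaged 0.23. CD151, a tetraspanin that partners laminin-binding integrins, fell by 0.44 among neighbours that averaged -0.32.

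**Figure D4:**
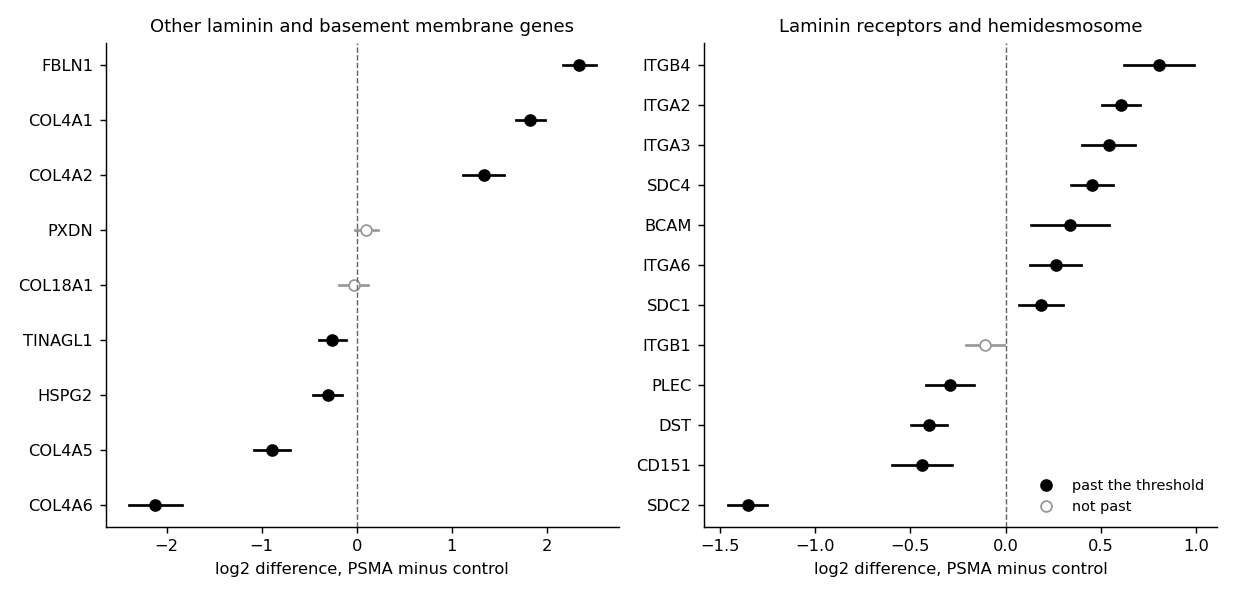
Log2 difference, arrays labelled PSMA minus arrays labelled control (horizontal axes), with 95% intervals from limma, of the testable basement membrane genes (left) and laminin receptor and hemidesmosome genes (right). Filled points passed the adjusted p threshold of 0.05. FBLN1 at 2.34 and COL4A6 at -2.12 mark the ends of the left panel, each above the filter level in 1 group alone, and ITGB4 at 0.81 and SDC2 at -1.36 those of the right.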

How the data were processed

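The deposited values are intensities, 1 per probe set and array, made by the authors with GCRMA per the submitters' processing notes; its version and later steps are not given in the sources used here. Values were read as linear because they ran from 3.76 to 17455. No depth applies to arrays, and 3 arrays a group limit the precision. Genes were named from the platform annotation (19064 of 22277 probe sets had 1 symbol, 1043 several, 2108 none, 62 were controls), and 19052 were found in RefSeq by gene identifier. Values were log2-transformed with no pseudocount. The 11303 probe sets that exceeded 52.5, the table's median, on 3 or more arrays were tested with limma 3.58.1 in R 4.3.3 (lmFit, eBayes), two-sided, Benjamini-Hochberg adjusted over all of them, threshold 0.05. Python 3.11.15 made summaries. In simulated data with 200 changed probe sets among 11303, limma called 97 of 100 changed by 1 on the log2 scale and 55 of 100 changed by 0.3. In the real data 60.6% were called, a far larger share than was changed here. The simulated rates therefore do not measure the sensitivity of the tests above.

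A gene in a list is represented by its brightest single-gene probe set by mean log2 value. Lists were other basement membrane genes, laminin receptors and hemidesmosome genes, dystroglycan glycosylation genes, laminin processing genes, and cell type markers. All members were described, and in each list the 2 largest increases and the 2 largest decreases past the threshold; other names complete small counts or were chosen after their values were seen. The members and lists were chosen with earlier results of these data known.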

Additional observations from a re-analysis of the deposited data

How the results depend on the processing

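The increases of LAMA5, LAMB1, LAMC1 and LAMB3 kept their direction under every alternative run and their side of the threshold under all but 1. Tested against a minimum fold of 1.5, 0 member probe sets passed where 7 passed without it. Their log2 differences in that test were unchanged by construction: 0.59 for LAMA5, 0.35 and 0.33 for LAMB1, 0.24 for LAMB3, 0.30 and 0.64 for LAMC1, and -0.16 for AGRN. That threshold left 747 of 6846 calls over all probe sets. In the lists it left 5 of 7 other basement membrane genes, 1 receptor gene (SDC2), 0 dystroglycan glycosylation genes and 0 processing genes. With 1 probe set a gene, 4 of the 7 member genes tested (LAMA5, LAMB1, LAMB3 and LAMC1) and 4476 of all 7035 genes passed. Both counts were lower because fewer probe sets were tested. In the main fit 62.4% of all tested genes passed by their brightest probe set. Without the filter 2 processing genes passed (P3H3 and MMP14).

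The AGRN call was lost with no filter (log2 difference -0.16), after quantile normalization (-0.12) and with an intensity trend (-0.16). Leaving out each array in turn moved it between -0.20 and -0.13, LAMA5 between 0.57 and 0.61, LAMB3 between 0.19 and 0.30, and NID1 between -0.0312 and 0.12. The LAMB3 to LAMB1 ratio moved between -0.18 and 0.00412, changing sign without control replicate 3. Averaged over all probe sets of a gene, the LAMA4 to LAMA5 ratio differed by -0.64 and AGRN to LAMC1 by -0.49. With a pseudocount of 16 the NID2 to LAMC1 ratio differed by 0.999. The cause was not tested. No paired analysis was possible because the groups share no replicate number.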

Other observations

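Genes that build the sugar chain by which dystroglycan binds laminin and agrin went both ways. Of 8 with a probe set, all 8 were testable, 2 were higher on arrays labelled PSMA, 2 were lower and 4 did not pass, with a median log2 difference of -0.03; of all tested genes 62.4% passed. B4GAT1, a glucuronyltransferase that primes the laminin-binding chain, read 377, 414 and 410 on arrays labelled PSMA, against 264, 266 and 272 on arrays labelled control (log2 difference 0.58, limma adjusted p = 2.5e-05). DPM1, a subunit of the enzyme that makes the mannose donor, was higher by 0.43. POMGNT1, which extends O-linked mannose, read 217, 232 and 223 on arrays labelled PSMA, against 349, 299 and 335 on arrays labelled control (log2 difference -0.55, limma adjusted p = 0.000134), and RXYLT1 fell by 0.26.

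Of 7 genes for laminin processing or modification with a probe set, 2 were testable. MMP14, a membrane protease that can cut laminin chains, was higher by 0.24 on its brightest probe set (limma adjusted p = 0.00706). Its other 2 testable probe sets differed by 0.10 and 0.14 with overlapping groups and did not pass (limma adjusted p = 0.148 and 0.181). PLOD3 did not pass either (-0.04).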
